A study of Homo sapiens with 24 samples.

Results

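NT5E and 8 other genes of extracellular adenosine metabolism were followed across 8 groups of bladder cancer cells. The 9 members were taken from a table of 35993 gene symbols by symbol: the nucleotide-cleaving surface enzymes NT5E, ENTPD1 and ENPP1, the adenosine receptors ADORA1, ADORA2A and ADORA2B, the adenosine-consuming enzymes ADA and ADK, and DPP4, a surface protein that binds adenosine deaminase. All 9 symbols were present. The set was chosen by the measured counts of NT5E, which differed between the CD44-defined groups in these same libraries. The differences of NT5E, within a line and between the parental lines, are therefore given as a description with no test. Tests are given for the other 8 members.

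J82 and RT-112 are established lines from human bladder carcinomas. Each was sequenced as parental cells and as 3 further lines derived from it, labelled CD44 Low (little CD44 receptor), CD44 High (much CD44 receptor) and CD44v6 (much of the receptor form that carries variant exon v6), with 3 biological replicates a group and 24 libraries in all. How the derived lines were made, and whether each is 1 clone, is not given in the sources used here, and no drug or other treatment is named for any group. The groups within a line therefore share the parental background and differ in their label for CD44.

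Cells release ATP, which surface enzymes break down stepwise. ENTPD1 (CD39) removes phosphates from ATP and ADP, ENPP1 cleaves ATP directly to AMP, and NT5E (CD73), a membrane-anchored 5′-nucleotidase, turns AMP into adenosine. Adenosine then acts on 4 receptors that couple to G proteins, of which ADORA1 lowers cyclic AMP and ADORA2A and ADORA2B raise it. It is removed by ADA, which deaminates it to inosine, and by ADK, which phosphorylates it to AMP inside the cell. In tumours the route is best known for holding back immune cells, and CD73 is also widely used as a surface marker.

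The libraries held 16752825 to 24419670 counts. Total CD44 RNA was lower in CD44 Low and higher in CD44 High and CD44v6 than in parental cells. Group means in J82 were 445 CPM (the count relative to library size, with TMM factors for composition) in parental cells, 279 in CD44 Low, 727 in CD44 High and 800 in CD44v6. In RT-112 they were 317, 141, 420 and 448. CD44 Low libraries still held 254 to 309 CPM in J82 and 120 to 152 CPM in RT-112. Counts per gene symbol do not show variant exon v6, so the label CD44v6 was not checked. Of 11 urothelial and epithelial markers, KRT7, KRT8, KRT18 and KRT19 were abundant in both lines, but the 12 J82 libraries held only 0.780 to 3.18 CPM of EPCAM and 0.470 to 6.47 CPM of CDH1, had KRT5, UPK2 and UPK3A at 0, and held 211 to 622 CPM of the mesenchymal marker VIM. RT-112 held 262 to 484 CPM of EPCAM, at most 2.55 CPM of VIM, and UPK3A at 0, while FN1, another mesenchymal marker, was abundant in both lines (209.6 to 546 CPM in J82 and 197 to 892 CPM in RT-112). ADA, DPP4, ENTPD1 and ADORA2A are best known in leukocytes: the 5 leukocyte markers summed to at most 1.85 CPM in any library, with PTPRC at 0 in 22 of 24 libraries and a sum of 0 to 0.529 CPM in RT-112. The 3 endothelial markers summed to at most 4.19 CPM. In bulk RNA, fewer cells expressing a gene and less of its RNA per cell cannot be told apart.

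Some genes were at 0 in 1 replicate of a group and at 15 or more counts in another. Between 101 genes (J82 parental) and 401 genes (J82 CD44v6) did so in a group, which is 0.674% to 2.61% of the genes that reached 15 counts there. Of the members, ENTPD1 and ADORA2A did so, and their values are given as counts below. The low-count filter left 8 of the 9 members to test in J82 (all but ADORA2A) and 5 in RT-112 (NT5E, ENPP1, ADORA2B, ADA and ADK), so no count over the tested members stands for all of them.

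NT5E lies on the plus strand of chromosome 6 (chr6:85449584-85495791, GRCh38, 10 exon blocks), and ADORA2B on the plus strand of chromosome 17 (chr17:15944917-15975746, 2 exon blocks). Neither shares exon sequence with another annotated gene. Promoter windows in RefSeq (GRCh38.p14) were found for 6 of the 9 members: NT5E, ENPP1, ADORA1, ADORA2B, ADA and DPP4. In the 250 bases before the start site, both strands were searched for GGAATG (TEAD), TGANTCA (AP-1), TGACGTCA (the cyclic AMP response element), ACGTG (the core of the hypoxia element), GGGCGG (the GC box) and TATAAA (the TATA box); none of these motifs contains another. The GC box was in 6 of 6 members, against 42.6% of 35116 promoters. The 6 windows were 63.2% to 80.0% G or C, and the motif holds only these letters. The share of promoters was not matched for this, so 6 of 6 is not shown to be a trait of the members. ACGTG was in 2 of 6 (ENPP1 and DPP4), against 18.5% of promoters. GGAATG (11.9% of promoters), TGANTCA (6.57%), TGACGTCA (1.65%) and TATAAA (10.7%) were in none of the 6. A match is a description of the letters in the window and not a measured binding site. A GC box site of NT5E and 2 of ADORA2B, the receptor that ranked highest in level, are printed with 12 bases on either side, 5′ to 3′ on the plus strand. Capitals mark the GC box, which reads CCGCCC where it lies on the opposite strand.
NT5E site (chr6:85449999-85450028): ctgaagaaggacCCGCCCcggccttgaccc
ADORA2B site 1 (chr17:15945010-15945039): gtgggtggtgctCCGCCCagcccgagacgg
ADORA2B site 2 (chr17:15945026-15945055): ccagcccgagacGGGCGGgcgcgcgggcca
The first base of the motif lay 72 bases before the start site in the NT5E site, and 108 and 92 bases before it in those of ADORA2B. The start sites here are those of RefSeq, which lie 499 bases (NT5E) and 213 bases (ADORA2B) downstream of the GENCODE gene starts given above, so the printed sites lie within exons of the GENCODE annotation.

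NT5E was lowest in CD44 Low and highest in CD44 High in both lines. In J82 the parental libraries held 92.0, 93.4 and 94.8 CPM, CD44 Low 30.6, 34.3 and 37.9 CPM, CD44 High 155, 144 and 154 CPM, and CD44v6 116, 97.9 and 129 CPM. No 2 of these 4 groups overlapped. In RT-112 the parental libraries held 48.8, 38.4 and 41.5 CPM, CD44 Low 9.95, 11.5 and 12.3 CPM, CD44 High 91.1, 54.0 and 90.0 CPM, and CD44v6 77.2, 63.2 and 71.1 CPM. There CD44 Low lay below all other groups and parental cells below both CD44-rich groups, while CD44 High and CD44v6 overlapped. These levels rest on 549 to 3598 counts per library in J82 and 227 to 1937 in RT-112.

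**Figure D1:**
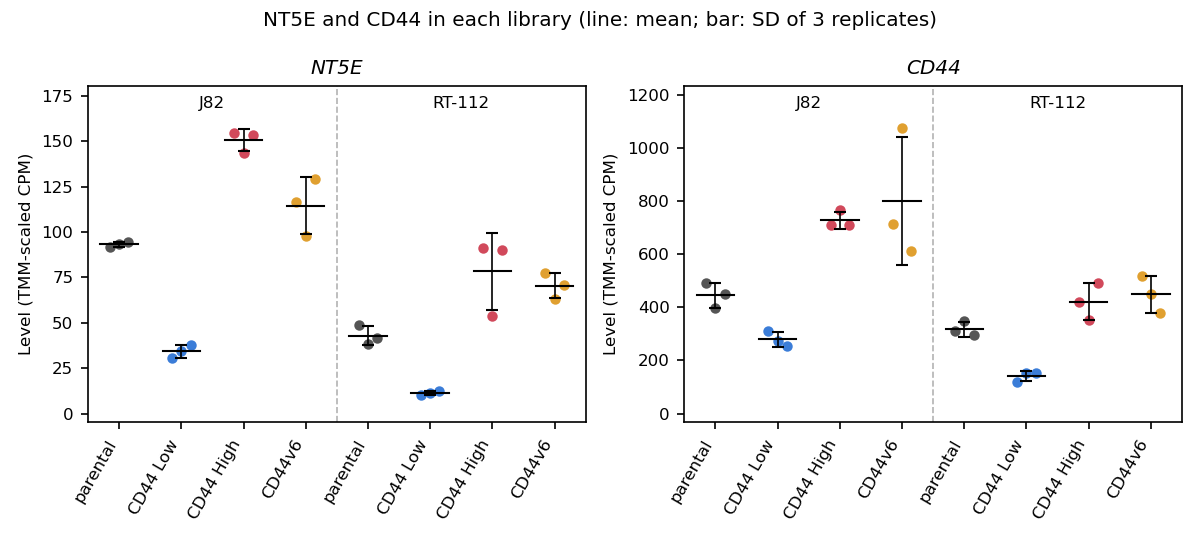
Level of NT5E (left) and CD44 (right) in each of the 24 libraries, in TMM-scaled CPM on a linear axis; points are libraries, lines group means and bars the SD of 3 replicates. NT5E in CD44 Low lies at 30.6 to 37.9 CPM in J82 and 9.95 to 12.3 CPM in RT-112, below every other library of the same line.

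Against parental cells, NT5E in CD44 High was 0.69 higher on the log2 scale in J82 (SE 0.11) and 0.87 higher in RT-112 (SE 0.18). In CD44v6 it was 0.30 higher in J82 (SE 0.11) and 0.67 higher in RT-112 (SE 0.18). The distance from CD44 Low to CD44 High was 4.42-fold in J82 and 7.17-fold in RT-112, and the log2 difference between these changes, J82 minus RT-112, was -0.66 (SE 0.22). CD44v6 lay below CD44 High by a log2 value of -0.40 in J82 (SE 0.11) and -0.20 in RT-112 (SE 0.18). CD44 was ordered otherwise at the top, with a higher mean in CD44v6 than in CD44 High in both lines, although the libraries of those groups overlapped. Leaving out RT-112 CD44 High replicate 2, the lowest library of its group, moved the change from parental cells to 1.08.

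Of the enzymes upstream of NT5E, ENPP1 was measured in both lines and ENTPD1 was close to undetected. ENPP1 held 6.16 to 11.1 CPM in the J82 libraries and 1.53 to 8.28 CPM in RT-112. In RT-112 it ran against NT5E: CD44 Low held 8.28, 5.63 and 4.72 CPM and CD44 High 1.53, 3.05 and 3.90 CPM, with every CD44 High library below every CD44 Low library. ENPP1 fell by 1.09 on the log2 scale from CD44 Low to CD44 High (SE 0.30, edgeR adjusted p = 0.0278). In J82 the CD44 High libraries (6.67, 8.58 and 6.79 CPM) were also all below CD44 Low (9.86, 9.99 and 9.22 CPM), but the log2 change of -0.39 (SE 0.20) did not pass the test (edgeR adjusted p = 0.207). The difference between the lines in this change was 0.73 (SE 0.38, edgeR adjusted p = 0.245). The RT-112 call was lost when CD44 Low replicate 1 or 2, or CD44 High replicate 1 or 2, was left out (edgeR adjusted p = 0.123, 0.0547, 0.0904 and 0.0502), and in the fit on the 6 libraries of the 2 groups (edgeR adjusted p = 0.0862).

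ENTPD1 had counts in 4 of 12 J82 libraries and in 2 of 12 RT-112 libraries. In J82 these were CD44 Low replicates 1 and 2 with 24 and 14 counts, CD44v6 replicate 3 with 17 and parental replicate 2 with 18. In RT-112 they were CD44 Low replicates 1 and 3, with 50 and 14 counts. The other libraries were listed at 0, so replicates of 1 group differed from 0 to 50 counts. Of its exon bases, 6.51% are shared with the antisense gene ENTPD1-AS1, and whether the counting used strand is not given in the sources used here.

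Among the receptors, ADORA2B was the only one with a substantial level, and in both lines the order of its group means was that of NT5E. The J82 parental libraries held 41.4, 42.1 and 45.6 CPM of ADORA2B, CD44 Low 28.9, 29.4 and 32.1 CPM, CD44 High 53.4, 49.6 and 52.1 CPM, and CD44v6 49.1, 42.8 and 52.6 CPM. All CD44 Low libraries were below all others, and CD44v6 overlapped both CD44 High and parental cells. ADORA2B fell by 0.52 on the log2 scale in J82 CD44 Low against parental cells (SE 0.10, edgeR adjusted p = 0.00846). It was higher than in CD44 Low by 0.78 in CD44 High (SE 0.10, edgeR adjusted p = 0.000144) and by 0.68 in CD44v6 (SE 0.10, edgeR adjusted p = 0.000582). Without J82 parental replicate 3 the change against parental cells was -0.48 (edgeR adjusted p = 0.0504).

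RT-112 held more ADORA2B with less difference between its groups: parental cells 69.1, 62.1 and 69.6 CPM, CD44 Low 68.2, 54.0 and 62.2 CPM, CD44 High 98.7, 84.3 and 65.5 CPM, and CD44v6 64.7, 70.3 and 90.9 CPM. Its group means were ordered as those of NT5E (61.4, 67.0, 75.3 and 82.8 CPM in CD44 Low, parental, CD44v6 and CD44 High). The libraries of all these groups overlapped. CD44 High and CD44 Low overlapped, and the change of 0.46 between them (SE 0.16) did not pass the test (edgeR adjusted p = 0.0642). Without CD44 High replicate 3 it was 0.60 (edgeR adjusted p = 0.0139). It also passed in the fit over all 24 libraries (edgeR adjusted p = 0.0373) and with DESeq2 (adjusted p = 0.0376). The change in J82 minus that in RT-112 was 0.35 (SE 0.19, 95% interval -0.05 to 0.74, edgeR adjusted p = 0.272), so a difference between the lines was not shown.

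ADORA1, the receptor that lowers cyclic AMP, was present at a few counts per library. In J82 it had 26, 5 and 10 counts in the parental libraries, 3, 0 and 0 in CD44 Low, 32, 18 and 10 in CD44 High, and 21, 23 and 23 in CD44v6. CD44 Low thus lay below every other J82 group. It was called higher than in CD44 Low in J82 CD44 High (edgeR adjusted p = 0.0124) and in CD44v6 (edgeR adjusted p = 0.0099). ADORA1 passed the low-count filter in J82 only through the groups where it was higher, so these calls were favoured by the filter. In RT-112 the counts were 19, 2 and 4 in CD44 Low and 0 in the other 9 libraries, the reverse of J82. With so few counts no fold is given, and 8.45% of its exon bases are shared with an antisense gene. ADORA2A reached 6 counts at most in J82 and 15 in RT-112, was at 0 in 9 of 12 libraries of each line, and shares 56.8% of its exon bases with the read-through gene SPECC1L-ADORA2A, so its few counts cannot be assigned to it with certainty.

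**Figure D2:**
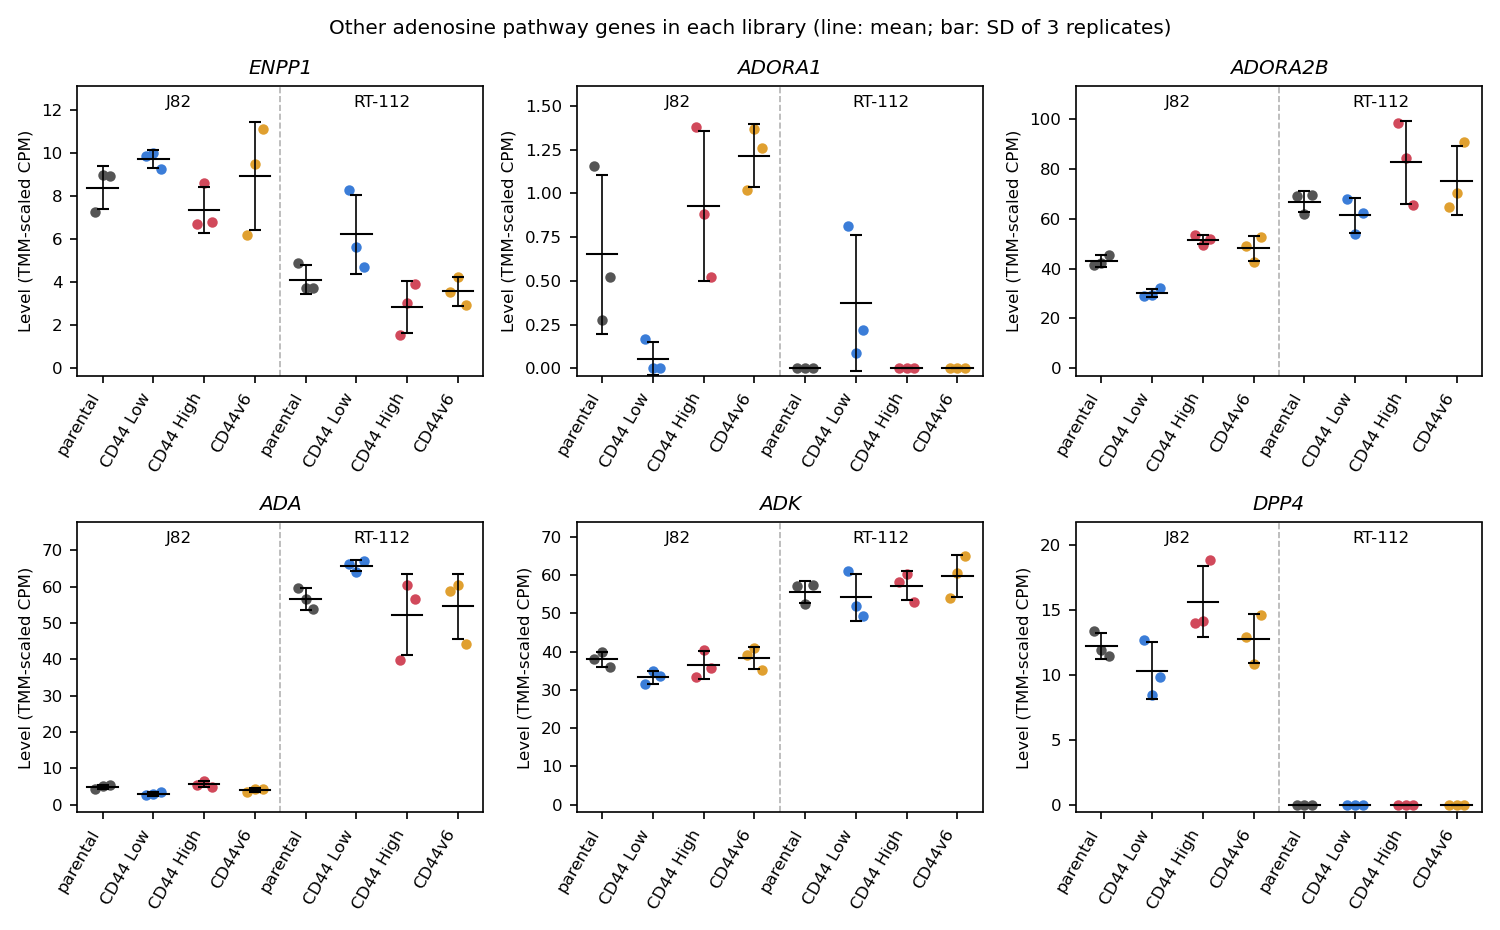
Levels of ENPP1, ADORA1, ADORA2B, ADA, ADK and DPP4 in each library, in TMM-scaled CPM on linear axes that differ between panels; points are libraries, lines means and bars the SD of 3 replicates. ADA lies at 2.62 to 6.66 CPM in J82 and 39.7 to 67.1 CPM in RT-112, and DPP4 is at 0 in every RT-112 library.

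The adenosine-consuming enzymes differed between the lines more than between the groups. ADA held 2.62 to 6.66 CPM in J82 and 39.7 to 67.1 CPM in RT-112. In J82, CD44 Low held 2.62, 2.92 and 3.61 CPM and CD44 High 5.51, 6.66 and 4.86 CPM, with no overlap, and ADA rose by 0.90 on the log2 scale from CD44 Low to CD44 High (SE 0.21, edgeR adjusted p = 0.0113). In RT-112, CD44 Low held 66.3, 64.1 and 67.1 CPM and CD44 High 39.7, 60.5 and 56.7 CPM, so that here the CD44 High libraries were the lower ones. That change of -0.30 (SE 0.14) did not pass the test (edgeR adjusted p = 0.170), but the change in J82 minus that in RT-112 did: 1.23 (SE 0.24, 95% interval 0.73 to 1.72, edgeR adjusted p = 0.00192). Leaving out 1 library at a time, it passed 12 of 12 times (1.07 to 1.41). The J82 change alone was 0.77 without CD44 High replicate 2 (edgeR adjusted p = 0.0508).

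ADK, the kinase that returns adenosine to AMP, was even across the groups, at 31.5 to 40.9 CPM in J82 and 49.4 to 65.0 CPM in RT-112. Its log2 change from CD44 Low to CD44 High was 0.14 in J82 (95% interval -0.08 to 0.35) and 0.11 in RT-112 (95% interval -0.11 to 0.33). It passed the test in none of the 12 comparisons within a line.

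DPP4, a surface peptidase that anchors ADA outside the cell, was found in J82 alone. The parental libraries held 13.4, 11.9 and 11.4 CPM, CD44 Low 12.7, 8.48 and 9.79 CPM, CD44 High 13.99, 14.1 and 18.8 CPM, and CD44v6 12.9, 10.8 and 14.6 CPM. All CD44 High libraries were above all CD44 Low libraries, by 0.60 on the log2 scale (SE 0.18, edgeR adjusted p = 0.0383). This call held in 1 of 6 fits that left out a library, and was lost without CD44 Low replicate 2 or 3 or any 1 CD44 High replicate (edgeR adjusted p = 0.0537 to 0.136). In RT-112 it was at 0 in all 12 libraries, which allows a group mean of up to 0.149 CPM in parental cells, 0.142 in CD44 Low, 0.163 in CD44 High and 0.154 in CD44v6 (3 counts in each library, averaged over the group; counting error only). Against these limits DPP4 was at least 81.98-fold higher in J82 parental cells than in RT-112 parental cells, and at least 72.6-fold, 96.1-fold and 82.7-fold higher in CD44 Low, CD44 High and CD44v6.

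**Figure D3:**
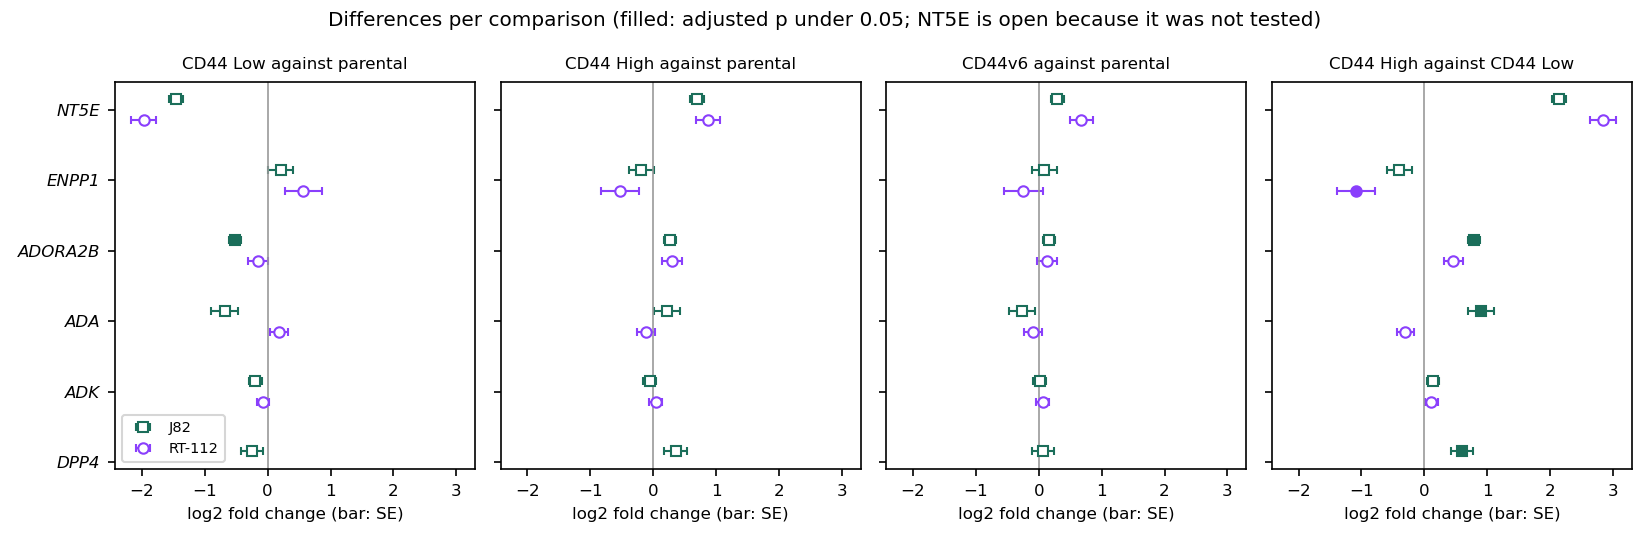
Log2 fold changes of 6 members in 4 comparisons, with J82 as squares and RT-112 as circles; bars are standard errors, filled symbols passed an edgeR adjusted p of 0.05, and NT5E is drawn open because it was not tested. In CD44 High against CD44 Low, ADORA2B, ADA and DPP4 are filled in J82 and ENPP1 in RT-112.

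Counted over the 8 members besides NT5E, calls came mainly from CD44 High against CD44 Low in J82. There 4 of the 7 that could be tested were called, all higher in CD44 High (ADORA1, ADORA2B, ADA and DPP4), where 15.7% of all 15951 genes were called and 8.83% were called higher. The median log2 change over the 7 tested members was 0.60, against -0.02 over all genes tested. That median includes ADORA1, which the filter favoured, and ENTPD1, which was close to undetected, so it is not read as a shift of the set. In CD44v6 against CD44 Low 2 were called in J82 (ADORA1 and ADORA2B, both higher), with 9.58% of all genes called and 6.18% called higher. ADORA1 had passed the low-count filter in J82 through CD44 High and CD44v6 (10 to 32 and 21 to 23 counts, against 0 to 3 in CD44 Low). Its calls against CD44 Low were thus favoured by the filter and add no support to these counts. The DPP4 call held in 1 of 6 fits that left out a library. In CD44 Low against parental cells 1 was called (ADORA2B, lower), with 5.34% of all genes called and 3.08% called lower. Set against CD44 Low, CD44 High cells of RT-112 gave 1 call of the 4 tested (ENPP1, lower), with 16.0% of all 15645 genes called and 7.02% called lower, and a count of 1 of 4 cannot be told from that share.

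In 8 of the 12 comparisons edgeR called none of these members. In J82 they were CD44 High against parental cells (2.94% of all genes called; 1 member at an unadjusted p under 0.05), CD44v6 against parental cells (2.60%; 0 members) and CD44v6 against CD44 High (0%; 1 member). In RT-112 they were CD44 Low (3.20%), CD44 High (0.511%) and CD44v6 (0.614%) against parental cells, with 0 members at an unadjusted p under 0.05 in each, CD44v6 against CD44 Low (16.0%; 1 member) and CD44v6 against CD44 High (0%; 0 members). DESeq2 called 0 members in each of these 8 comparisons as well, although in J82 CD44v6 against CD44 High it gave ENTPD1, ENPP1, ADORA1, ADA and DPP4 no adjusted p.

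A different change in the lines was called for 2 members in CD44 High against CD44 Low (ADORA1 and ADA), where 10.7% of 17438 genes differed. In CD44 Low against parental cells it was called for 1 (ADORA1), where 1.06% of genes differed, and in CD44v6 against CD44 Low also for 1 (ADORA1), where 7.52% differed. For CD44 High and CD44v6 against parental cells edgeR and DESeq2 called 0, with 0 members at an unadjusted edgeR p under 0.05 and 0.241% and 0.138% of genes differing. For CD44v6 against CD44 High edgeR called 0, with 1 member (ADA) at an unadjusted p under 0.05 and 0.00573% of genes differing. The calls for ADORA1 rest on groups at 0 counts and were favoured by the low-count filter, which it passed in J82 and not within RT-112.

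Between the parental lines, 6 of the 7 tested members other than NT5E were called different, where 62.0% of all 17438 genes were. A count of 6 of 7 cannot be told from that share. NT5E, given as a description, was 1.12 higher in J82 on the log2 scale with an SE of 0.15 (93.4 ± 1.36 CPM against 42.9 ± 5.30 CPM, SD, n = 3). ENPP1 was also higher in J82, by 1.03 (SE 0.27, edgeR adjusted p = 0.00203), as were ADORA1 and DPP4, which RT-112 parental cells had at 0. ADORA1 and DPP4 passed the low-count filter through J82 and not within RT-112, so their calls were favoured by the filter. Lower in J82 were ADA, by a log2 value of -3.54 (4.89 ± 0.599 CPM against 56.7 ± 3.02 CPM, SD, n = 3; SE 0.17, edgeR adjusted p = 8.63e-14), ADORA2B with -0.64 (SE 0.13, edgeR adjusted p = 0.000294) and ADK with -0.55 (SE 0.10, edgeR adjusted p = 6.29e-05). Of these members, J82 thus held more NT5E and ENPP1, which lead to adenosine, and less ADA and ADK, which remove it. The surface nucleotide-cleaving enzymes of the wider list below went the other way. Of those 12, 4 could be tested, and all 4 were called lower in J82, where 5410 of all 17438 genes were. Of these 4, only ALPP passed the low-count filter within J82. The others were tested through RT-112, where they were higher, so their calls were favoured by the filter. RT-112 parental cells held 15.7 CPM of ALPG and 10.9 CPM of ENTPD3, against 0 and 0.0297 CPM in J82. Levels of adenosine were not measured. For each member but ENTPD1, which did not pass, and ADORA2A, which was not tested, the libraries of the 2 parental lines did not overlap. The share of all genes without overlap was not computed, so this is not shown to be a trait of the members. These are 2 lines of different origin, so the tests speak of the lines only.

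Per kilobase of exon, which allows levels to be set side by side between genes, NT5E ranked first of the 9 in J82 parental cells (20.6 ± 0.301 CPM per kb, SD, n = 3), CD44 High (33.3 ± 1.33) and CD44v6 (25.3 ± 3.48). In J82 CD44 Low it was at rank 3 (7.55 ± 0.802), behind ADORA2B (11.8 ± 0.667) and ADK (10.5 ± 0.541), whose ranges (11.3 to 12.6 and 9.89 to 10.96 CPM per kb) and that of NT5E (6.75 to 8.35) did not overlap. In all 4 RT-112 groups NT5E was at rank 4, from 2.48 ± 0.264 CPM per kb in CD44 Low to 17.3 ± 4.66 in CD44 High. There ADORA2B came first, with 24.1 to 32.5 CPM per kb over the group means, then ADA with 18.3 to 23.1 and ADK with 17.02 to 18.8. In the CD44 High group of RT-112 the ranges of NT5E (11.9 to 20.1), ADK (16.6 to 19.0) and ADA (13.9 to 21.2) overlapped, so their order there is not beyond their spread. The same held in RT-112 CD44v6, with 13.9 to 17.04 for NT5E, 16.9 to 20.4 for ADK and 15.5 to 21.2 for ADA.

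A wider list of 71 purine genes, none of them a member, was read in CD44 High against CD44 Low: 40 could be tested in J82 and 44 in RT-112. In J82 7 were called, 5 higher and 2 lower, where 15.7% of all genes were called. In RT-112 12 were called, 6 higher and 6 lower, where 16.0% of all genes were. The medians over the list were -0.005 and 0.06, against -0.02 and 0.02 over all genes tested. Of the calls, 3 in J82 and 5 in RT-112 held whichever of the 6 libraries was left out: P2RY1, PNP and PDE4D in J82, and ALPG, P2RX7, P2RY1, NT5C and AHCY in RT-112. P2RX7 was at 0 counts in RT-112 CD44 Low and passed the low-count filter through other groups, so its call was favoured by the filter. Of the 7 and the 12, 4 and 5 also held under each other setting that tested them; GJA1 and P2RY2 in J82 and ENTPD3, P2RX6, NT5C2, PDE4B and PDE4D in RT-112 were each lost under 1 setting. The count fell to 3 without J82 CD44 Low replicate 2 and to 4 without J82 CD44 High replicate 1. In RT-112 it fell to 6 without CD44 Low replicate 1 and to 5 without CD44 High replicate 1 or in the fit on the 6 libraries of the 2 groups.

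Among the surface enzymes, ALPG, a germ-cell alkaline phosphatase that can dephosphorylate nucleotides, fell in RT-112 by 3.07 on the log2 scale from CD44 Low to CD44 High (72.6 ± 24.6 CPM to 8.57 ± 5.96 CPM, SD, n = 3; edgeR adjusted p = 0.000471). ALPG has close paralogs, ALPP and ALPI, so its counts may be shared with them. ENTPD3, an ectonucleotidase like ENTPD1, fell by 0.91 (edgeR adjusted p = 0.0191). The single surface enzyme of the list that could be tested in J82 was not called. Of the transporters and release channels, the adenosine transporter SLC29A1 (ENT1) rose in J82 by 0.72 (edgeR adjusted p = 0.0134) and the gap junction gene GJA1 fell by 0.50 (edgeR adjusted p = 0.0199), while none was called in RT-112.

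The P2 receptors sense ATP, ADP and UTP. P2RY1, the ADP receptor, moved in opposite directions: it rose in J82 from 1.73 ± 0.475 to 3.66 ± 0.523 CPM (log2 change 1.09, edgeR adjusted p = 0.011) and fell in RT-112 from 4.25 ± 0.576 to 1.54 ± 0.370 CPM (SD, n = 3; log2 change -1.41, edgeR adjusted p = 0.00409). The difference between those changes was 2.53 (SE 0.37, edgeR adjusted p = 0.000108). P2RY2, a receptor for ATP and UTP, rose in J82 by 1.41 (edgeR adjusted p = 0.0228), from 8 to 24 counts in CD44 Low to between 43 and 51 in CD44 High. That call held in 1 of 6 fits that left out a library. In RT-112 the UDP receptor P2RY6 rose by 1.06 (edgeR adjusted p = 0.0307), a call lost under 4 of 6 other settings: no filter, the replicate block, the groups compared alone and all 24 libraries (edgeR adjusted p = 0.0517 to 0.280). P2RX6, with at most 13 counts, was called higher (edgeR adjusted p = 0.0281). P2RX7, an ATP-gated channel, was at 0 counts in all 3 RT-112 CD44 Low libraries and at 3 to 37 counts in CD44 High (edgeR adjusted p = 0.00822). P2RX6 had 0 to 2 counts in those CD44 Low libraries. Both genes passed the low-count filter in RT-112 through the other groups, where they were higher, so these calls were favoured by the filter.

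Of the intracellular enzymes, PNP, which cleaves the inosine that ADA makes, rose in J82 from 60.8 ± 6.42 to 89.7 ± 3.16 CPM (SD, n = 3; log2 change 0.57, edgeR adjusted p = 0.00271). It was level in RT-112, at 113 ± 4.07 and 114 ± 3.25 CPM, and the changes differed between the lines (0.55, SE 0.12, edgeR adjusted p = 0.00576). AK4, a mitochondrial adenylate kinase, rose in J82 by 0.97 (edgeR adjusted p = 0.0489), a call lost under 3 of 6 other settings (edgeR adjusted p = 0.0518 to 0.109). In RT-112 the cytosolic nucleotidase NT5C rose by 1.23 (edgeR adjusted p = 0.00342) and AHCY, which releases adenosine from S-adenosylhomocysteine, rose by 0.59 (edgeR adjusted p = 0.00172). NT5C2 fell by 0.30 (edgeR adjusted p = 0.011). For NT5C the change in J82 minus that in RT-112 was -1.21 (SE 0.26, edgeR adjusted p = 0.00415).

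**Figure D4:**
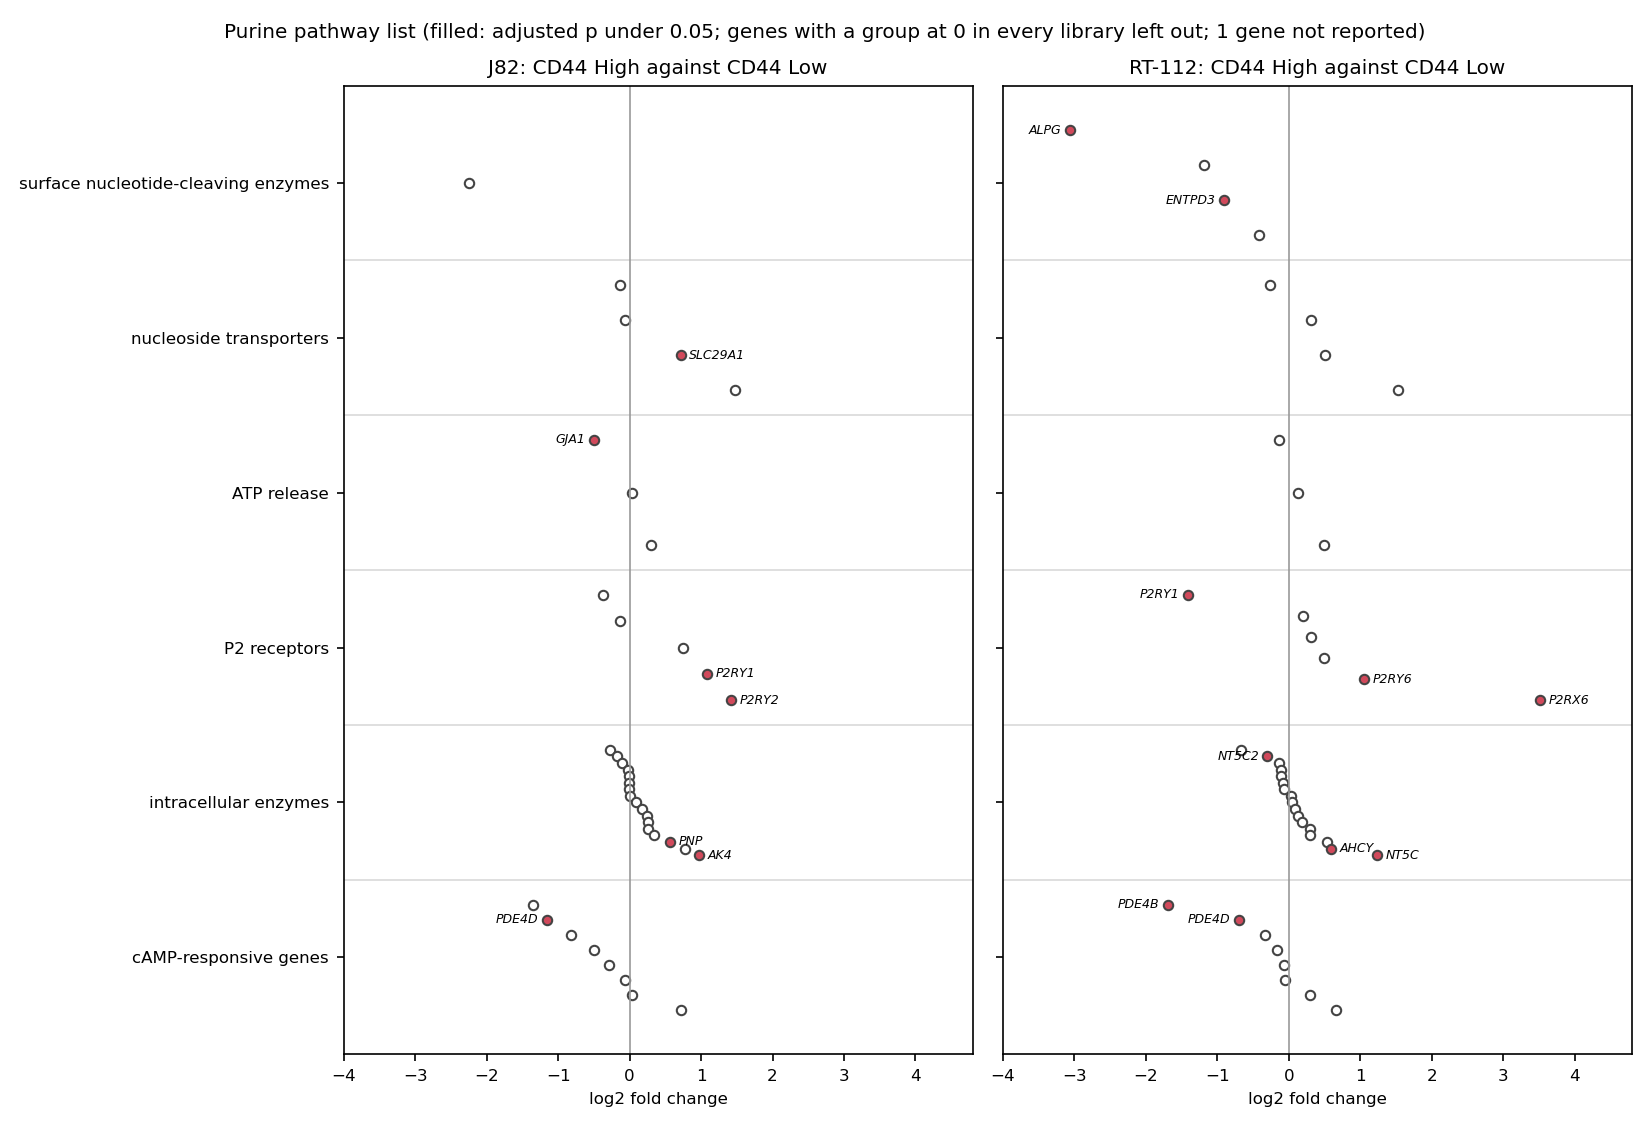
Log2 fold changes, CD44 High against CD44 Low, of the tested genes of the purine list, by sublist and line; filled points passed an edgeR adjusted p of 0.05, and genes with a group at 0 in every library are left out. P2RY1 lies at 1.09 in J82 and at -1.41 in RT-112, and PDE4D is below 0 in both.

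The 8 cyclic AMP-responsive genes of the list can be read beside the receptors, although several of them are also early-response genes that many stimuli raise. PDE4D, a phosphodiesterase that degrades cyclic AMP, fell from CD44 Low to CD44 High in J82 by 1.16 (from 21.1 to 27.5 CPM over 3 libraries to between 9.29 and 12.7 CPM; edgeR adjusted p = 0.00235) and in RT-112 by 0.70 (edgeR adjusted p = 0.0229). PDE4B fell in RT-112 by 1.69 (edgeR adjusted p = 0.0336). In J82, more of the 8 differed from parental cells: 5 were higher in CD44 Low, 2 in CD44 High and 3 in CD44v6, where 2.26%, 1.71% and 1.86% of all genes were called higher. NR4A2, an orphan nuclear receptor named here after its values were seen, was called in all 3, with log2 changes of 1.91 (edgeR adjusted p = 0.00305), 1.95 (edgeR adjusted p = 0.00427) and 2.10 (edgeR adjusted p = 0.00518), and its calls held without any 1 library except for CD44v6 without J82 parental replicate 1 (edgeR adjusted p = 0.0519). The other calls were less stable: the count in CD44 Low fell from 5 to between 1 and 3 when any 1 library was left out, that in CD44 High went from 2 to 1 without any parental replicate or CD44 High replicate 2 or 3 and to 4 without CD44 High replicate 1, and that in CD44v6 from 3 to 0 without parental replicate 1 and to 1 without parental replicate 2 or 3 or CD44v6 replicate 2. In RT-112 none of the 8 was called against parental cells by edgeR, with 5, 4 and 3 at an unadjusted p under 0.05 in CD44 Low, CD44 High and CD44v6. Of all 15645 genes, 3.20%, 0.511% and 0.614% were called there, and 2960, 1930 and 2389 were at an unadjusted p under 0.05.

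Genes with a pattern like that of NT5E were ranked by Pearson's r with NT5E across the 12 libraries of each line, keeping the smaller of the 2 values, over the 8731 genes whose average log2 CPM reached 3 in both lines. These correlations share libraries and groups and are given as a description. First came SH3RF2, which encodes a RING and SH3 domain protein (r of 0.975 in J82 and 0.977 in RT-112). ITGA6, the integrin α6 subunit, a laminin receptor chain, was at rank 2 (0.972 and 0.982). FAM83D, known for its place on the mitotic spindle, was at rank 3 (0.966 and 0.965). PLEK2, a pleckstrin-family protein, was at rank 4 (0.940 and 0.957). CD44 was at rank 64 (0.843 and 0.978). ADORA2B had 0.986 in J82 and 0.596 in RT-112, which placed it at rank 471.

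These 4 genes had their lowest mean in CD44 Low in both lines. This follows from their choice by likeness to NT5E in the same libraries and is no separate result. ITGA6 was at 92.1 ± 3.31 CPM in J82 CD44 Low, between 130.4 and 154 CPM in the 3 parental libraries, 181 ± 14.3 in CD44v6 and 196 ± 7.62 in CD44 High, with 440.4 ± 26.3, 628 ± 26.2, 807 ± 37.4 and 879 ± 78.5 CPM in RT-112 CD44 Low, parental, CD44v6 and CD44 High cells (SD, n = 3). FAM83D in J82 was at 52.9 ± 5.50 CPM in CD44 Low, 95.2 ± 0.192 in parental cells, 94.5 ± 10.6 in CD44v6 and 142 ± 7.25 in CD44 High (SD, n = 3), so that parental cells and CD44v6 overlapped. In RT-112 FAM83D was at 64.4 ± 5.75 CPM in CD44 Low, 119.7 ± 8.23 in parental cells, 158 ± 19.7 in CD44 High and 169 ± 6.83 in CD44v6 (SD, n = 3). SH3RF2, FAM83D and PLEK2 had their highest RT-112 mean in CD44v6, where NT5E and ITGA6 had theirs in CD44 High, and for each of these genes the CD44 High and CD44v6 libraries of RT-112 overlapped.

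**Figure D5:**
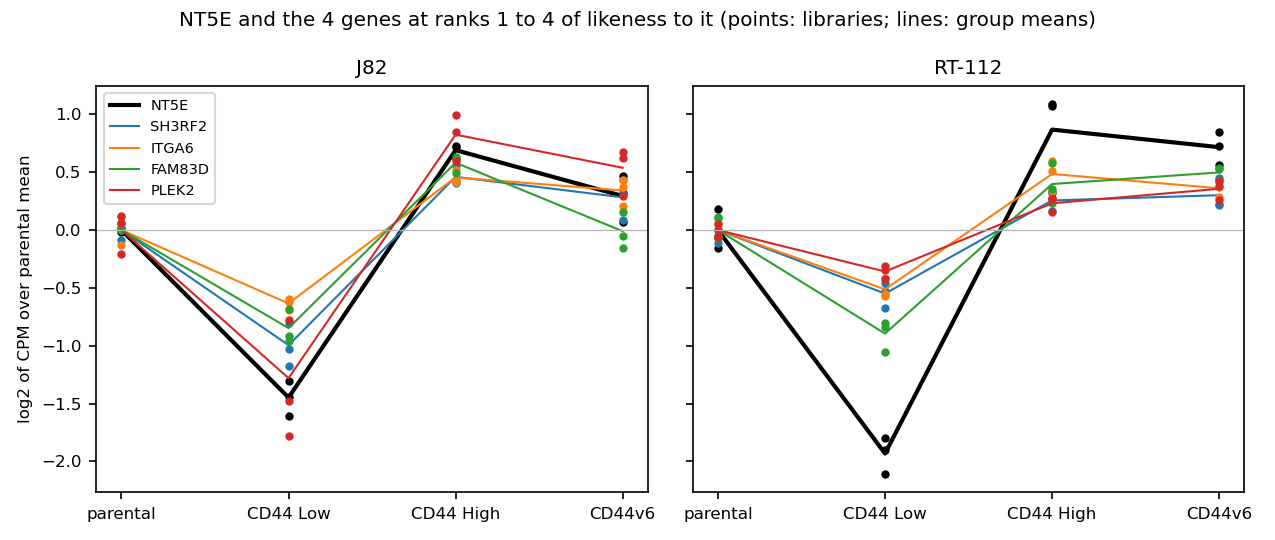
Log2 of each library's CPM over the mean of the parental libraries, for NT5E (black) and the 4 genes at ranks 1 to 4 of likeness to it, by group and line; points are libraries and lines join group means. NT5E spans the widest range of the 5 genes drawn in RT-112. All 5 are below 0 in the CD44 Low groups of both lines, which follows from the choice of genes by likeness.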

How the data were processed

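RNA was sequenced from 24 libraries, 8 groups of 3 biological replicates, and groups were taken from the sample titles. Raw, unnormalized counts for each gene symbol were deposited by the authors in 1 table. Per the submitters' processing notes, HISAT2, StringTie and the build GRCh37 were used; their versions and roles, the annotation and the use of strand are not given in the sources used here. Every value was a whole number, 0 columns lacked a sample and 0 lines lacked a gene name.

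Counts were fitted in R 4.3.3 with edgeR 4.0.16: filterByExpr, TMM scaling, and quasi-likelihood F-tests (two-sided, group the only term) on the 12 libraries of a line, or on all 24 for differences between lines. P-values were adjusted by Benjamini-Hochberg over all genes tested (15951 in J82, 15645 in RT-112, 17438 over both), with calls made under 0.05. Levels are CPM with TMM factors over all 24 libraries, and log2 changes come from the fits. Intervals cover 95%. At 16752825 to 24419670 counts a library, members near 0 are limited by counting error. The fits were tested on simulated data with known changes. Replicates were compared in 24 pairs: chi-square per degree of freedom was at least 6.42, so none agree within sampling noise.

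Exon lengths and gene overlaps came from GENCODE 29 (GRCh38) and promoters from RefSeq (GRCh38.p14), on another build than the counts. Whole promoters and proteins were not printed. Alternatives were DESeq2 1.42.0 (Wald test), median-of-ratios factors, no filter, a replicate block, a fit on only the libraries of a comparison, a fit on all 24, and leaving out each library. The alternatives for the purine list and for the differences between the lines in CD44v6 against CD44 Low and CD44 High were chosen after seeing the data. The replicate numbers in the labels were not treated as pairs.

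Members and lists were chosen with earlier results of these data known. All 9 members are named; purine genes are named where called in CD44 High against CD44 Low, at most 4 per sublist and line by size of change; the genes most like NT5E are the 5 with the highest smaller r (log2 CPM, prior count 2). Some genes and 1 sequence that these rules select are not reported here, although the counts over lists include them. Plots used matplotlib 3.10.9 (Python 3.11.15).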

Additional observations from a re-analysis of the deposited data

Results flagged for a closer look

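Changes that differed between J82 and RT-112 by the interaction contrast of edgeR over all 24 libraries concerned 2 members. For ADA, the change from CD44 Low to CD44 High in J82 minus that in RT-112 was 1.23 on the log2 scale (SE 0.24, adjusted p = 0.00192): the CD44 High libraries were all above CD44 Low in J82 and all below it in RT-112.

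For ADORA1 the difference between the lines was fitted at -9.35 for CD44 Low against parental cells (adjusted p = 0.0258), 9.84 for CD44 High against CD44 Low (adjusted p = 0.00382) and 10.2 for CD44v6 against CD44 Low (adjusted p = 0.00343). RT-112 had 0 counts outside CD44 Low and J82 CD44 Low had 3, 0 and 0, so these fitted sizes depend on the handling of zeros and are no measure of fold. The first was lost in 6 of 12 fits that left out 1 library, and the second and the third held in all 12. For the third, DESeq2 gave no adjusted p. ADORA1 passed the low-count filter through J82 groups where it was higher and not within RT-112, so these calls were favoured by the filter. That they held without 1 library adds no support.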

How the results depend on the processing

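With median-of-ratios factors and with no filter on low counts, the number of members called was within 1.5 times the main count in every comparison. In J82 CD44 Low against parental cells the count of 1 became 2 with the replicate block and 2 in the fit over all 24 libraries, and 0 to 2 over the fits without 1 library. For RT-112, CD44 High compared with CD44 Low, the count of 1 became 2 with DESeq2, 0 with the replicate block, 0 on the groups compared and 3 over all 24 libraries, with 0 to 2 without 1 library. In RT-112 CD44v6 against CD44 Low it went from 0 to 1 over all 24 libraries, with 0 to 1 without 1 library. For a different change in the lines in CD44 Low against parental cells it went from 1 to 2 with DESeq2, with 0 to 2 without 1 library. For CD44v6 against CD44 Low the count of such differences went from 1 to 0 with DESeq2, which gave ADORA1 no adjusted p, and was 1 to 2 without 1 library (ADA was called without J82 CD44 Low replicate 3, adjusted p = 0.0428). Without 1 library, J82 CD44 High against CD44 Low gave 2 to 4. The cause of these moves was not tested.

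No called change reversed its sign under any alternative run. The replicate block left ENPP1 in RT-112 at -1.07 (adjusted p = 0.0602) and called ADORA1 in J82 CD44 Low against parental cells (adjusted p = 0.0456). It changed no other call of a member. Libraries with the same number deviated together (correlation above 0.1) in all 3 pairs in 1 of 12 comparisons (J82 CD44v6 against CD44 High: 0.113, 0.109 and 0.252), where the block, like the fit without it, called 0 genes; elsewhere the numbers were not read as pairs. DPP4 in J82 CD44 High against CD44 Low was not called with no filter (adjusted p = 0.0584), on the groups compared (adjusted p = 0.0708) or over all 24 libraries (adjusted p = 0.0594). ADA in J82 CD44 Low against parental cells was called over all 24 libraries (adjusted p = 0.037).

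The share of all genes called moved too. In RT-112 CD44v6 against parental cells it was 0.614%, 4.55% with DESeq2 and 6.33% on the groups compared. In CD44v6 against CD44 High edgeR called 0 genes in either line and DESeq2 called 74 in J82 and 2 in RT-112. In RT-112, leaving out CD44 High replicate 2 gave 431. Depth limits ADORA1, ADORA2A and ENTPD1, for which differences of a few counts were not detectable.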
